A study of Mus musculus with 14 samples.

Results

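Interferon-stimulated genes are switched on when interferons reach a cell, and 39 of them, chosen by name, were followed through mouse leukemic stem cells that had lost Tcf1 and Lef1 or had met a prostaglandin. All 39 were found among the 24463 genes of the deposited tables. The cells were lineage-negative bone marrow cells that carried p210 BCR-ABL, the fusion kinase of chronic myeloid leukemia, delivered by a retrovirus, and they were sorted as Lin-, c-Kit+, Sca1+ and GFP+. Control cells were exposed for 6 h to 20 µM prostaglandin E1 (PGE1, n = 3), 20 µM prostaglandin E2 (PGE2, n = 2) or the vehicle (DMSO, n = 3). Untreated cells came from Tcf1/Lef1-deficient marrow (dKO, n = 3) or from control marrow (WT, n = 3). Every group shared the BCR-ABL transduction and culture with serum, stem cell factor and thrombopoietin. The sources used here give neither how the deletion was made nor the strain, sex, age and number of the mice. Nothing in the labels says that replicates came from separate animals, so p-values measure the spread between these libraries, which may be technical. The genotype field gave wild type for dKO replicate 1 and Tcf1/Lef1-deficient for DMSO replicate 1, against their titles. Titles were followed for both.

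Type I interferons bind the receptor chains IFNAR1 and IFNAR2, which activate the kinases JAK1 and TYK2. These phosphorylate STAT2, which acts with IRF9 at a DNA element called the interferon-stimulated response element, or ISRE. Type II interferon acts through IFNGR1 and IFNGR2 and on gamma-activated sites, or GAS. The induced proteins sense viral RNA and DNA, degrade or edit RNA, block viral entry and budding, and load peptides on MHC class I. In blood stem cells, interferon signalling is known for driving quiescent cells into division, and interferon alpha has long been used against chronic myeloid leukemia.

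Levels are FPKM, fragments scaled to gene length and library depth, so levels can be compared between genes. Library totals recovered from the FPKM steps were 31268116 to 33813809 reads in untreated libraries and 19042213 to 22708474 reads in treated ones. Tcf7, which encodes Tcf1, had 0.142, 0.0219 and 0.135 FPKM in dKO libraries, against 1.48, 1.15 and 1.30 FPKM in WT libraries, and Lef1 averaged 0.151 ± 0.0411 FPKM in dKO and 0.283 ± 0.0524 FPKM in WT (SD, n = 3 each). No dKO library reached a WT library for either gene, and the two-sided exact permutation p was 0.1 for each, the smallest that 3 against 3 allows. The gate's own genes were detected in every library, with Kit at 20.8 FPKM or more and Ly6a, which encodes Sca1 and is itself interferon-responsive, at 2.86 FPKM or more. Kit, Ly6a and the progenitor marker Cd34 were called lower in dKO than in WT: Kit averaged 23 ± 2.56 FPKM in dKO and 28.0 ± 0.629 FPKM in WT (limma, adjusted p = 0.019, lost when dKO replicate 3 or either of WT replicates 1 and 2 was left out) and Cd34 36.1 ± 1.45 FPKM in dKO and 65.4 ± 1.59 FPKM in WT (adjusted p = 6.6e-06). Ly6a was 2.97, 2.86 and 3.53 FPKM in dKO libraries, against 12.6, 10.9 and 10.4 FPKM in WT libraries, and fell by 1.58 on the log2 scale (limma, adjusted p = 1.2e-05). Between replicates, the variance over that of read counting was 45.7 and 47.9 for the pairs with PGE1 replicate 2, against 12.3 for the other PGE1 pair. It was 15.0 and 17.4 for the pairs with DMSO replicate 1, against 1.86 for the other pair, and 16.0 and 15.0 for the pairs with dKO replicate 1, against 5.33 for the other pair.

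Across the 39 genes the level spanned from Psmb8, a catalytic subunit of the immunoproteasome, down to transcripts near the limit of detection. Psmb8 was the highest in every group, at 88.3 FPKM in PGE1, 153 in PGE2, 139 in DMSO, 183 in dKO and 190.1 in WT. Bst2, which tethers budding virus to the cell, Psmb9, another immunoproteasome subunit, and Tap1, a peptide transporter for MHC class I, were the next 3 in every group. At the other end, Mx2, a dynamin-like antiviral GTPase, averaged 0.483 FPKM in PGE1, 0.481 in PGE2, 0.78 in DMSO, 0.0839 in dKO and 0.298 in WT. Ifit3, which stabilises the RNA-binding protein IFIT1, and Ifi44, an interferon-induced cytosolic protein, were also low, with 18 and 60 reads over the 3 dKO libraries. These 3 genes lay below the mean of 1 FPKM needed to enter the comparisons given here; Ifi44 passed it in some of the alternative fits with fewer libraries.

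**Figure D1:**
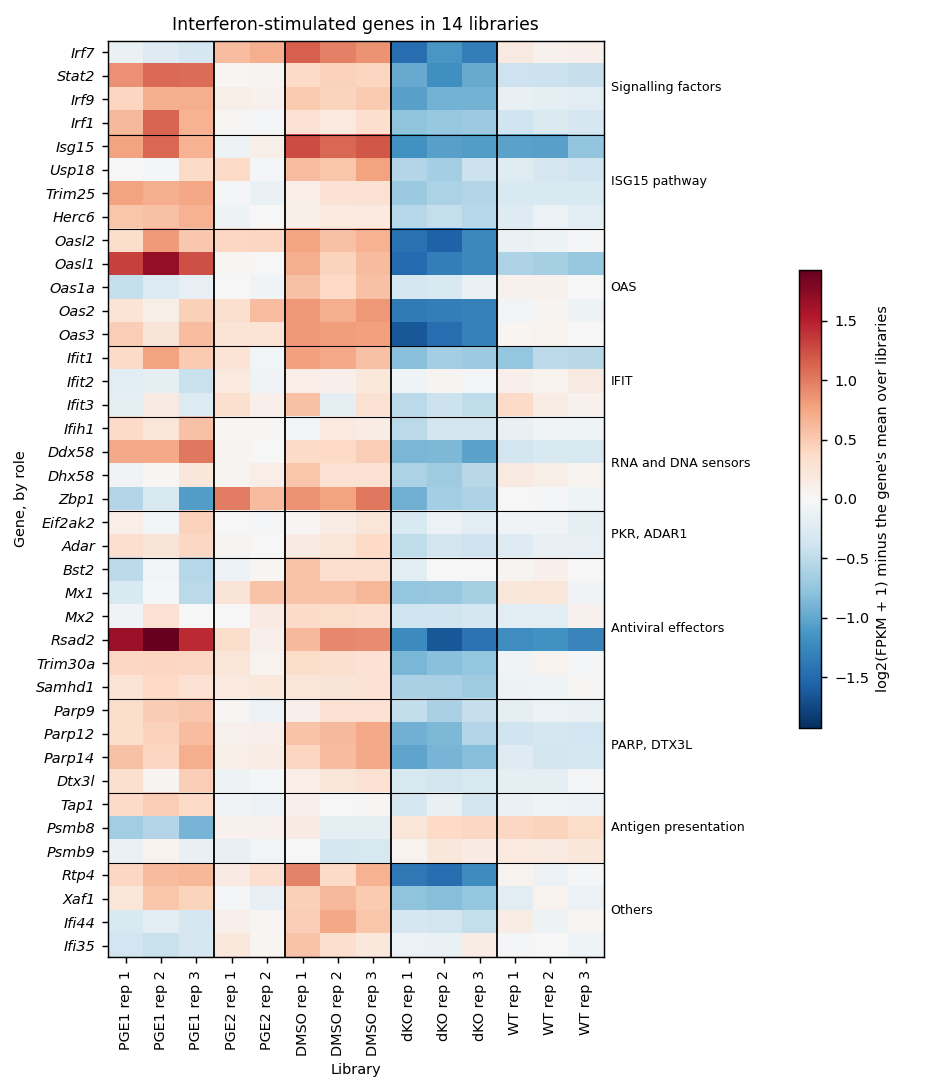
Each row is 1 of the 39 genes, ordered by role, and each column is a library; colour gives log2(FPKM + 1) minus the gene's mean over the 14 libraries. The dKO columns are blue for most genes, the DMSO columns red for most, and the PGE1 columns mix red rows such as Rsad2 and Oasl1 with blue rows such as Zbp1 and Psmb8.

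The promoters of these genes are shown because the ISRE is the element through which STAT2 and IRF9 act. RefSeq promoters (GRCm38.p6, 250 bases before to 50 after the start) matched 30 of the 39 genes. The ISRE core searched was GAAA, any 2 bases, GAAA, on both strands, so that neighbouring cores may overlap; it also reads as TTTC, any 2 bases, TTTC. It occurred in 12 of the 30, against 3.99% of all 27025 genes in the table. The GAS core, TTC, any 3 bases, GAA, occurred in 9 of the 30 (30.0%), against 9.55% of all genes. Irf7, Irf9, Oasl1, Oasl2 and Trim25, which the results also turn on, held no ISRE core in their windows. Below are windows of 6 of the genes with a core, written 5′ to 3′ on the gene's strand, with ISRE cores in capitals.
Isg15, chr4:156200860-156200911 (-): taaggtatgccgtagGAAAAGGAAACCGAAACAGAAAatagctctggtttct
Ifit1, chr19:34640770-34640828 (+): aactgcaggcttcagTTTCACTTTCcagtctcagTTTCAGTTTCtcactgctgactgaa
Rsad2, chr12:26456548-26456587 (-): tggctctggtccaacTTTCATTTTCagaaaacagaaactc
Stat2, chr10:128270261-128270300 (+): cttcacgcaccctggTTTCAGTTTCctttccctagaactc
Oas1a, chr5:120907526-120907560 (-): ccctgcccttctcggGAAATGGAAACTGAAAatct
Oas3, chr5:120777710-120777749 (-): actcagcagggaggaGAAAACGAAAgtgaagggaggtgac
Isg15 holds 3 overlapping cores, which begin 78, 72 and 66 bases before its start, and Oas1a holds 2, which begin 20 and 14 bases before. Ifit1 holds 2 cores in the reverse reading, which begin 104 and 85 bases before its start. A match describes the letters only, and binding was not measured.

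Cells without Tcf1 and Lef1 held less RNA of most interferon-stimulated genes than WT cells. In dKO cells 24 of the 33 genes tested fell and 0 rose (limma on log2(FPKM + 1), Benjamini-Hochberg adjusted over the 10721 genes whose mean reached 1 FPKM, threshold 0.05). At an unadjusted p below 0.05, 25 were lower and 0 higher. Over all genes tested, 22.9% fell and 18.0% rose. The median log2 difference of the 33 genes was -0.37, against -0.01 for all genes. The signalling factors, the OAS family, the nucleic acid sensors and the PARP group were called lower, and Isg15, Rsad2, Bst2 and the immunoproteasome subunits did not pass the test. Under quantile normalization 20 genes were lower: the calls of Oas1a, Ifih1, Parp12, Dtx3l, Adar and Herc6 were lost, with log2 differences of -0.16, -0.09, -0.22, -0.08, -0.14 and -0.11, and Bst2 and Psmb8 were called lower, at -0.20 each (adjusted p = 0.024 and 0.011). Without dKO replicate 1 the count was 24, with Tap1 lost (adjusted p = 0.081) and Rsad2 called lower (-0.32, adjusted p = 0.026). Without dKO replicate 3, Usp18 was called lower (adjusted p = 0.034). The calls of Ifih1, Adar, Dtx3l and Tap1 were each lost in at least 2 of the 6 fits that left out a library. In bulk RNA, fewer cells of a type and less RNA per cell cannot be told apart. Y-chromosome RNA was absent from dKO libraries and present in the WT group, so genotype and donor sex cannot be told apart either.

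All 4 signalling factors fell. Irf7, the factor that amplifies type I interferon production, had 1.5, 2.21 and 1.76 FPKM in dKO libraries, against 6.83, 6.34 and 6.47 FPKM in WT libraries. The groups did not overlap, and the log2 difference was -1.42 ± 0.0937 (SE; adjusted p = 2.7e-05). Irf9, the DNA-binding partner of STAT2, had 3.30, 3.75 and 3.74 FPKM in dKO libraries, against 7.12, 6.80 and 6.66 FPKM in WT libraries, and its log2 difference was -0.77 ± 0.0609 (adjusted p = 6.7e-05). Stat2 averaged 3.12 ± 0.338 FPKM in dKO and 5.33 ± 0.0811 FPKM in WT (SD, n = 3 each; adjusted p = 0.00047). Irf1, a factor of the interferon gamma response, averaged 7.53 ± 0.195 FPKM in dKO and 10.3 ± 0.434 FPKM in WT (adjusted p = 0.00057). For each of the 4, all dKO libraries lay below all WT libraries, and Irf7 had the widest gap. How many of all genes lay so was not computed.

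The OAS family fell as a whole, and Oas3, Oasl2 and Oas2 were among the 5 genes with the largest log2 differences. OAS1 to OAS3 make the second messenger 2-5A from double-stranded RNA, which activates RNase L; the OASL proteins carry a ubiquitin-like tail and, in mouse, OASL1 restrains IRF7 translation. Oas3 had 0.563, 0.752 and 0.948 FPKM in dKO libraries, against 3.95, 4.07 and 3.80 FPKM in WT libraries (log2 difference -1.50 ± 0.0922; adjusted p = 1.9e-05). Oas2 had 0.199, 0.222 and 0.25 FPKM in dKO libraries, which rested on 24, 29 and 32 reads, against 1.97, 2.19 and 1.87 FPKM in WT libraries, so the mean was 8.99-fold lower in dKO. In both genes the highest dKO library stayed far under the lowest WT library. Oasl2 had 0.826, 0.688 and 1.09 FPKM in dKO libraries, against 3.54, 3.63 and 3.90 FPKM in WT libraries (log2 difference -1.33; adjusted p = 3.6e-05), and Oasl1 0.557, 0.752 and 0.868 FPKM in dKO, against 1.92, 1.82 and 1.65 FPKM in WT (log2 difference -0.70; adjusted p = 0.001). Oas1a differed less, at 3.96, 4.12 and 4.76 FPKM in dKO libraries, against 5.64, 5.63 and 5.32 FPKM in WT libraries (log2 difference -0.31; adjusted p = 0.0099); it has close copies in the mouse genome, so its level is uncertain.

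The 4 sensors of foreign nucleic acid were all called lower. Dhx58 encodes LGP2, a regulator of the RNA sensors RIG-I and MDA5, and had 3.30, 3.09 and 3.52 FPKM in dKO libraries, against 6.40, 6.12 and 5.86 FPKM in WT libraries (log2 difference -0.73 ± 0.0614; adjusted p = 9.7e-05). Zbp1, a sensor of left-handed nucleic acid that can start necroptosis, had 1.19, 1.63 and 1.74 FPKM in dKO libraries, against 3.14, 3.08 and 2.94 FPKM in WT libraries (log2 difference -0.69 ± 0.0952; adjusted p = 0.0011). Neither gene had a dKO library within the WT range. Ddx58, which encodes RIG-I, averaged 2.09 ± 0.184 FPKM in dKO and 3.69 ± 0.0967 FPKM in WT (adjusted p = 0.00042), and Ifih1, which encodes MDA5, 1.98 ± 0.193 FPKM in dKO and 2.68 ± 0.106 FPKM in WT (adjusted p = 0.013; lost without WT replicate 2 or 3). Of the enzymes that act on double-stranded RNA, Adar, which edits adenosine to inosine, was called lower with 8.37 ± 0.446 FPKM in dKO and 9.97 ± 0.424 FPKM in WT. Eif2ak2, which encodes the translation-blocking kinase PKR, averaged 6.47 ± 0.469 FPKM in dKO and 7.02 ± 0.317 FPKM in WT and did not pass (adjusted p = 0.21).

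Among the antiviral effectors, Trim30a and Samhd1 fell. Trim30a, a mouse TRIM protein that dampens NF-kB signalling, had 3.82, 4.10 and 4.31 FPKM in dKO libraries, against 7.44, 8.31 and 7.71 FPKM in WT libraries (log2 difference -0.80 ± 0.0622; adjusted p = 6.5e-05); it too has close paralogs. Samhd1, which depletes deoxynucleotides, averaged 16.9 ± 0.402 FPKM in dKO and 25.9 ± 1.22 FPKM in WT (adjusted p = 6.1e-05). Rsad2, which encodes viperin, an enzyme that makes a chain-terminating nucleotide, averaged 1.07 ± 0.282 FPKM in dKO and 1.40 ± 0.0866 FPKM in WT, with overlapping libraries (adjusted p = 0.14). Bst2 overlapped likewise, with 69.2 ± 6.21 FPKM in dKO and 75.0 ± 2.27 FPKM in WT (adjusted p = 0.18). Rtp4, an interferon-induced chaperone of G protein-coupled receptors, was among the genes with the largest differences, at 0.752, 0.658 and 0.98 FPKM in dKO libraries, against 3.80, 3.23 and 3.43 FPKM in WT libraries (log2 difference -1.32 ± 0.0918; adjusted p = 3.6e-05). Ifi35, which binds the adaptor protein NMI, did not differ beyond its spread, with 14.5 ± 1.69 FPKM in dKO and 14.3 ± 0.388 FPKM in WT (95% interval of the log2 difference -0.17 to 0.18).

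In the ISG15 pathway, which attaches the ubiquitin-like protein ISG15 to other proteins, 2 of the 4 genes were called lower, beside 22.9% of all genes. Isg15 itself had 4.15, 4.62 and 4.52 FPKM in dKO libraries, against 4.67, 4.62 and 5.83 FPKM in WT libraries, a log2 difference of -0.15 (95% interval -0.35 to 0.05; adjusted p = 0.20). The highest dKO library and the lowest WT library met at the printed digits. Usp18, which removes ISG15 and blocks the receptor chain IFNAR2, averaged 1.8 ± 0.243 FPKM in dKO and 2.28 ± 0.167 FPKM in WT (adjusted p = 0.064). Herc6, the ISG15 ligase of mouse, and Trim25, the ubiquitin ligase that activates RIG-I, were called lower, with log2 differences of -0.33 and -0.33. All 4 genes of the PARP group were called lower. Parp14, a mono-ADP-ribosyltransferase that promotes STAT6 signalling, differed by -0.60 and Parp12, which acts on viral RNA translation, by -0.42; Parp9 differed by -0.37 and its ubiquitin ligase partner Dtx3l by -0.20. The antigen presentation genes were close to WT. Psmb8 averaged 183 ± 11.8 FPKM in dKO and 190.1 ± 5.54 FPKM in WT (95% interval -0.18 to 0.07), Psmb9 differed by -0.05 (95% interval -0.15 to 0.06), and Tap1 by -0.17 (adjusted p = 0.049, lost in 5 of the 6 fits that left out a library).

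Ifit2, an RNA-binding protein of the IFIT family, did not pass (log2 difference -0.13, 95% interval -0.29 to 0.02). Xaf1, Ifit1, Ifit3, Ifi44, Mx1 and Mx2 were below the minimum level of this fit. Of these, Mx1, a GTPase that traps viral nucleoproteins, had 0.202, 0.219 and 0.291 FPKM in dKO libraries, against 1.33, 1.38 and 0.917 FPKM in WT libraries, and Xaf1, a pro-apoptotic antagonist of XIAP, 0.332, 0.285 and 0.361 FPKM in dKO, against 0.968, 1.38 and 1.10 FPKM in WT. Ifit3 had 0.064, 0.133 and 0.0756 FPKM in dKO, against 0.952, 0.671 and 0.604 FPKM in WT, and Ifi44 0.253, 0.234 and 0.146 FPKM in dKO, against 0.738, 0.461 and 0.612 FPKM in WT. In these 4 genes, named after their values were seen, no dKO library reached a WT library. The share of all genes without overlap was not computed for this comparison. Ifit1, which binds RNA that lacks a methylated cap, overlapped, with 0.388, 0.538 and 0.493 FPKM in dKO and 0.453, 0.71 and 0.675 FPKM in WT. Mx1 rested on 63 reads over the dKO libraries and 318 over the WT libraries.

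The rest of the interferon pathway was read in the same fit, in which 22.9% of all genes fell and 18.0% rose. Of 8 receptor and kinase genes tested, 7 fell and 0 rose, and 7 were lower and 0 higher at an unadjusted p below 0.05. Ifnar1 averaged 5.57 ± 0.265 FPKM in dKO and 8.15 ± 0.0965 FPKM in WT, Ifnar2 24.1 ± 1.19 and 34.8 ± 1.71 FPKM (adjusted p = 0.0003 and 0.00026). Ifngr1, the ligand-binding chain for interferon gamma, averaged 74.8 ± 5.34 FPKM in dKO and 75.4 ± 0.4 FPKM in WT and did not pass. Of 18 sensors, adaptors and interferon regulatory factors outside the 39, 12 fell and 0 rose, and 1 was higher at an unadjusted p below 0.05. Irf8, a factor of monocyte and dendritic cell fate, had 13.3, 14.1 and 14.5 FPKM in dKO libraries, against 32.2, 32.4 and 31.7 FPKM in WT libraries, and Tlr7, the endosomal sensor of single-stranded RNA, 0.243, 0.203 and 0.276 FPKM in dKO, against 2.36, 2.61 and 2.65 FPKM in WT. Of 21 genes that restrain the pathway, 7 fell and 6 rose. Of 73 further interferon-stimulated genes, 45 fell and 6 rose. Slfn5, a Schlafen family gene, averaged 0.339 ± 0.0256 FPKM in dKO and 3.46 ± 0.166 FPKM in WT, and Ifitm1, a membrane protein that blocks viral fusion, rose to 292 ± 42.3 FPKM in dKO, against 166 ± 18.4 FPKM in WT.

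Markers of other cells moved in the same comparison, in which 22.9% of all genes fell and 18.0% rose. All 17 monocyte and macrophage markers fell in dKO cells, and their summed level was 133 to 144 FPKM in dKO libraries, against 885 to 926 FPKM in WT libraries. The 12 megakaryocyte markers summed to 75.1 to 140.2 FPKM in dKO libraries, against 289 to 315 FPKM in WT libraries, and 11 of 11 tested fell. The 12 plasmacytoid dendritic cell markers summed to 27.5 to 30.9 FPKM in dKO libraries, against 54.1 to 58.3 FPKM in WT libraries, with Klk1 at 0 in every dKO library. Of the 5 tested, 3 fell and 2 did not pass. Late neutrophil markers overlapped in sum, at 1343 to 1931 FPKM in dKO and 1495 to 1512 FPKM in WT, while 7 of the 9 tested fell and 1 rose. The Y-chromosome genes Ddx3y, Eif2s3y, Kdm5d and Uty were at 0 in all dKO libraries and detected in the WT group. Genotype and donor sex therefore cannot be told apart in this comparison. The part of these marker and Y-chromosome differences in the lower interferon-stimulated genes was not tested.

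**Figure D2:**
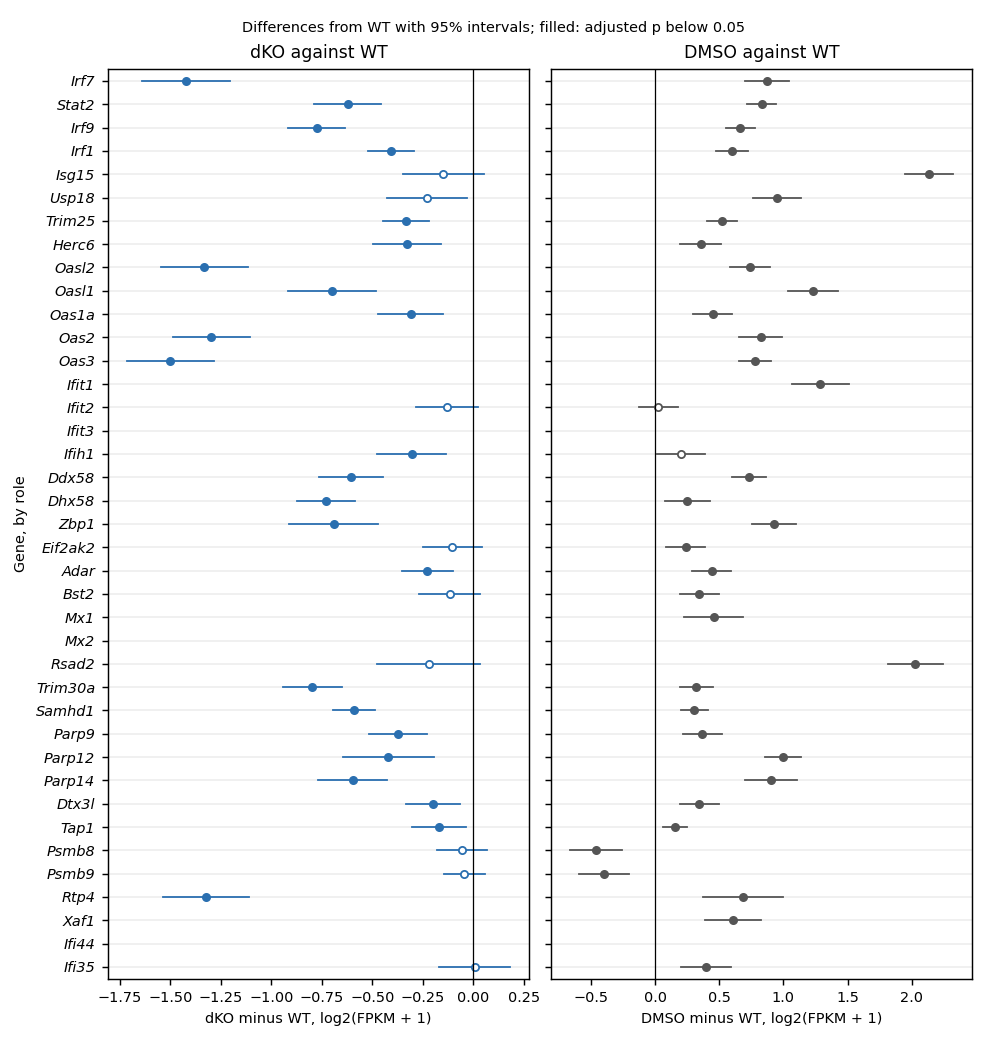
Points give the log2(FPKM + 1) difference of each tested gene, dKO minus WT on the left and DMSO minus WT on the right, with 95% intervals from limma; filled points passed the threshold. On the left 24 points are filled and all of those lie below 0, with Oas3 at -1.50; on the right 32 filled points lie above 0, with Isg15 at 2.13, and Psmb8 and Psmb9 lie below it.

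Vehicle-treated control cells held more RNA of nearly all interferon-stimulated genes than untreated WT cells. Of 36 genes tested in DMSO against WT, 32 rose, 2 fell and 2 did not pass, while 26.0% of all 11115 genes tested rose and 30.7% fell (limma, adjusted p below 0.05). The median log2 difference of the 36 was 0.56, against -0.03 for all genes. The DMSO and WT libraries also differed in depth as sets, so the vehicle culture and the library set cannot be told apart. The WT libraries are the ones that dKO was compared with. Without DMSO replicate 1, 33 genes were higher and 2 lower. Calls of Tap1, Eif2ak2 and Dhx58 were lost in some of the fits that left out a library: Tap1 without WT replicate 1, Eif2ak2 without DMSO replicate 3 or WT replicate 3, and Dhx58 without WT replicate 2 or 3.

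Isg15 and Rsad2 showed the largest rises. Isg15 had 26.7, 24.0 and 25.5 FPKM in DMSO libraries, against 4.67, 4.62 and 5.83 FPKM in WT libraries, a 5.05-fold higher mean (log2 difference 2.13 ± 0.0825; adjusted p = 7.7e-07). Rsad2 had 7.54, 9.59 and 9.43 FPKM in DMSO libraries, against 1.43, 1.48 and 1.31 FPKM in WT libraries (log2 difference 2.03 ± 0.0918; adjusted p = 1.6e-06). The lowest DMSO library of either gene stood well above its highest WT library. Ifit1 had 3.18, 3.02 and 2.60 FPKM in DMSO libraries, against 0.453, 0.71 and 0.675 FPKM in WT libraries (4.79-fold; adjusted p = 2.5e-05), and Oasl1 6.11, 4.89 and 5.70 FPKM in DMSO, against 1.92, 1.82 and 1.65 FPKM in WT (3.10-fold; adjusted p = 1.7e-05). Isg15 and Rsad2 had thus passed in this comparison and not in dKO against WT; the difference between these differences was not tested. Of the genes with a matched promoter, 10 of the 24 that rose held an ISRE core, near the share of all members, 12 of 30. So did 0 of the 2 that fell and 1 of the 2 that did not pass. In dKO against WT, 6 of 18 called lower and 4 of 8 not past held a core. Whether cores go with calls was not tested.

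Signalling factors rose together in DMSO cells. Irf7 had 14.4, 12.6 and 11.6 FPKM in DMSO libraries, against 6.83, 6.34 and 6.47 FPKM in WT libraries (log2 difference 0.87 ± 0.0756; adjusted p = 5e-05). Stat2 had 9.97, 10.5 and 10.3 FPKM in DMSO libraries, against 5.40, 5.35 and 5.24 FPKM in WT libraries (log2 difference 0.83 ± 0.0488; adjusted p = 6.9e-06), and Irf9 and Irf1 differed by 0.67 and 0.60. No library of the groups overlapped for these 4, but the share of all genes without overlap was not computed for DMSO against WT. Usp18 had 5.13, 4.92 and 5.96 FPKM in DMSO libraries, against 2.46, 2.25 and 2.13 FPKM in WT libraries, Parp12 7.83, 8.33 and 8.94 FPKM in DMSO, against 3.61, 3.76 and 3.68 FPKM in WT, and Parp14 6.72, 7.87 and 8.64 FPKM in DMSO, against 3.89, 3.52 and 3.57 FPKM in WT (adjusted p = 4.6e-05, 8.4e-06 and 8e-05). Zbp1 had 6.59, 6.09 and 7.42 FPKM in DMSO libraries, against 3.14, 3.08 and 2.94 FPKM in WT libraries (adjusted p = 3.6e-05). All 5 OAS genes, all 4 PARP-group genes and all 4 ISG15-pathway genes rose, beside 26.0% of all genes. Their log2 differences lay between 0.34 for Dtx3l and 2.13 for Isg15.

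The immunoproteasome ran the other way. Psmb8 had 161, 129 and 127 FPKM in DMSO libraries, against 191, 195 and 184 FPKM in WT libraries, and Psmb9 67.8, 53.7 and 54.1 FPKM in DMSO, against 76.8, 76.4 and 78.2 FPKM in WT (log2 differences -0.46 and -0.40; adjusted p = 0.0027 and 0.0043). In both genes DMSO replicate 1 was the highest of the DMSO libraries and still below every WT library. Tap1, whose promoter window overlaps that of Psmb9 on chromosome 17 with transcription running away from it, was higher by 0.15 on the log2 scale. Ifit2 averaged 3.02 ± 0.145 FPKM in DMSO and 2.95 ± 0.143 FPKM in WT, and Ifih1 3.24 ± 0.366 and 2.68 ± 0.106 FPKM, and neither passed (adjusted p = 0.76 and 0.061). With a mean under 1 FPKM over the libraries of the fit, Ifi44 had 1.18, 1.62 and 1.27 FPKM in DMSO libraries, against 0.738, 0.461 and 0.612 FPKM in WT libraries, and Mx2 0.804, 0.782 and 0.752 FPKM in DMSO, against 0.215, 0.206 and 0.473 FPKM in WT, with no overlap in either. Ifit3, also under that mean, overlapped, with 1.25, 0.353 and 0.865 FPKM in DMSO and 0.952, 0.671 and 0.604 FPKM in WT.

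Other pathway lists moved to differing degrees in the same comparison, in which 26.0% of all genes rose and 30.7% fell. Of 79 further interferon-stimulated genes 58 rose and 10 fell. Slfn1, a Schlafen gene, had 16.1, 16.7 and 16.5 FPKM in DMSO libraries, against 2.35, 2.12 and 2.39 FPKM in WT libraries, and Gbp2, a guanylate-binding GTPase that attacks pathogen vacuoles, 11, 10.6 and 10.9 FPKM in DMSO, against 2.55, 2.57 and 2.57 FPKM in WT (adjusted p = 5.2e-08 and 1.7e-07). Of 8 receptor and kinase genes, 7 rose and 1 fell; the one that fell was Ifngr1, at 49.2 ± 3.02 FPKM in DMSO and 75.4 ± 0.4 FPKM in WT (adjusted p = 3.8e-05). Of 21 genes that restrain the pathway, 8 rose, 6 fell and 7 did not pass. Among those that rose, Socs1 and Socs3, inhibitors of JAK kinases, averaged 33.2 ± 2.51 and 36.6 ± 0.839 FPKM in DMSO, against 6.29 ± 0.154 and 10.1 ± 0.687 FPKM in WT (SD, n = 3 each; adjusted p = 1e-07 and 1.9e-07). Monocyte and macrophage markers were mixed, with 6 of 17 higher, 6 lower and summed levels of 901 to 1059 FPKM in DMSO libraries, against 885 to 926 FPKM in WT libraries. Other marker sums did not overlap: megakaryocyte markers summed to 361 to 419.7 FPKM in DMSO libraries, against 289 to 315 FPKM in WT libraries, plasmacytoid dendritic cell markers to 43.4 to 47.0 FPKM in DMSO, against 54.1 to 58.3 FPKM in WT, T and NK cell markers to 44.8 to 53.3 FPKM in DMSO, against 72.1 to 73.2 FPKM in WT, and B-lymphoid markers to 6.81 to 7.49 FPKM in DMSO, against 11 to 14.1 FPKM in WT. Late neutrophil markers, at 1568 to 1855 FPKM in DMSO and 1495 to 1512 FPKM in WT, did not overlap either. Nor did the gate genes, at 79.9 to 83.7 FPKM in DMSO and 103 to 106 FPKM in WT. A sum can rest on a few genes: of 11 megakaryocyte markers tested, 3 rose, 1 fell and 7 did not pass. Only 3 T and NK cell markers and 2 B-lymphoid markers were tested. The part of these markers in the result was not tested.

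**Figure D3:**
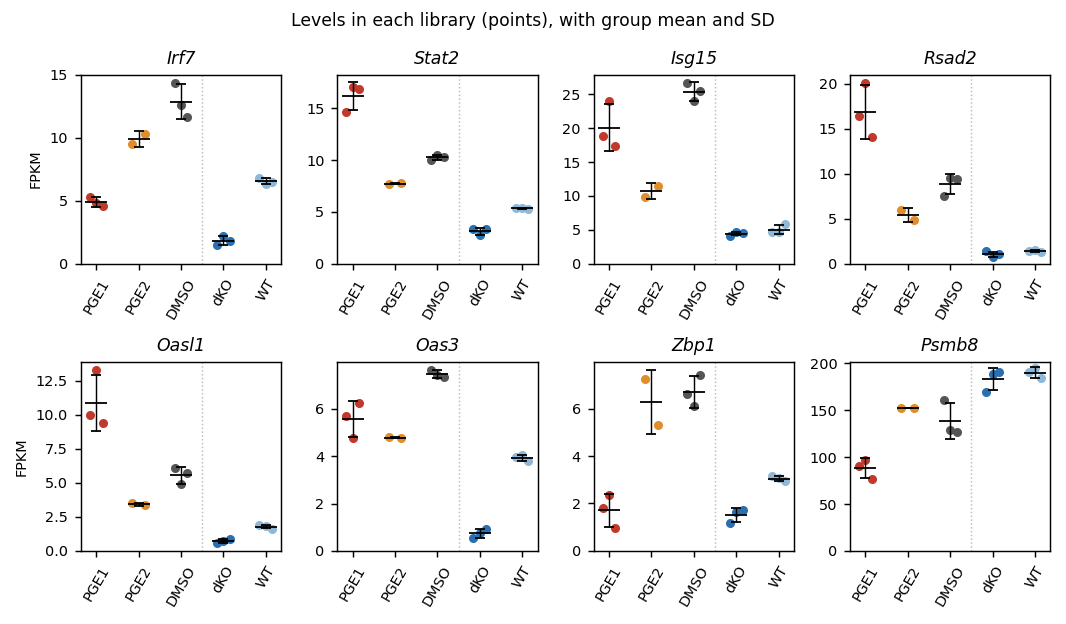
Each point is a library's FPKM, bars give the group mean and SD, and the dotted line separates treated from untreated groups. Irf7 and Zbp1 are low in PGE1 and dKO, Stat2, Rsad2 and Oasl1 are highest in PGE1, Isg15 is highest in DMSO and lower in PGE2, and Psmb8 is lowest in PGE1.

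With PGE1, interferon-stimulated genes changed in both directions, as all genes did. Against DMSO, 13 of 36 genes fell, 8 rose and 15 did not pass (limma on the 8 treated libraries), beside 25.5% of all 11242 genes that fell and 23.6% that rose. The median log2 difference was -0.06, against 0.01 for all genes. Irf7, Zbp1, Mx1, Bst2, Ifi35 and Psmb8 were among those that fell, and Rsad2, Oasl1, Stat2, Irf1, Trim25 and Ddx58 among those that rose. Without PGE1 replicate 2, which stood apart, 12 were lower and 9 higher, and without DMSO replicate 1, 11 were lower and 9 higher. Calls of Isg15, Dhx58 and Usp18 were lost in some of the fits that left out a library, Isg15 and Dhx58 in 5 of the 8 each and Usp18 without DMSO replicate 3.

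Of the signalling factors, Irf7 fell and Stat2 and Irf1 rose. Irf7 had 5.33, 4.85 and 4.55 FPKM in PGE1 libraries, against 14.4, 12.6 and 11.6 FPKM in DMSO libraries (log2 difference -1.23 ± 0.0912; adjusted p = 1.6e-05). Stat2 had 14.6, 17.0 and 16.8 FPKM in PGE1 libraries, against 9.97, 10.5 and 10.3 FPKM in DMSO libraries (log2 difference 0.61 ± 0.0717; adjusted p = 0.00018). Every PGE1 library was below every DMSO library for Irf7 and above it for Stat2. Irf1 averaged 24.2 ± 4.90 FPKM in PGE1 and 16.1 ± 0.895 FPKM in DMSO (adjusted p = 0.0057), and Irf9 12.5 ± 1.44 FPKM in PGE1 and 11.5 ± 0.341 FPKM in DMSO (adjusted p = 0.28, not past the threshold).

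The OAS family held calls in both directions. Oasl1 had 9.99, 13.3 and 9.39 FPKM in PGE1 libraries, against 6.11, 4.89 and 5.70 FPKM in DMSO libraries (log2 difference 0.85 ± 0.126; adjusted p = 0.00067). Oas1a had 3.56, 4.21 and 4.64 FPKM in PGE1 libraries, against 8.30, 7.18 and 8.27 FPKM in DMSO libraries (log2 difference -0.80 ± 0.0971; adjusted p = 0.00021). The OASL gene rose and the enzyme gene fell, without overlap in either. Oas2 and Oas3 fell, with log2 differences of -0.51 and -0.37 (adjusted p = 0.0059 and 0.009), and Oasl2 differed by -0.10 (95% interval -0.38 to 0.17).

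Sensors and effectors ran in both directions. Zbp1 had 1.8, 2.36 and 0.975 FPKM in PGE1 libraries, against 6.59, 6.09 and 7.42 FPKM in DMSO libraries, a 3.91-fold lower mean (log2 difference -1.54 ± 0.19; adjusted p = 0.00023). Rsad2 had 16.5, 20.1 and 14.1 FPKM in PGE1 libraries, against 7.54, 9.59 and 9.43 FPKM in DMSO libraries, a 1.91-fold higher mean (log2 difference 0.85 ± 0.138; adjusted p = 0.001). Zbp1 thus lay below all DMSO libraries and Rsad2 above them. Mx1 had 0.64, 0.988 and 0.406 FPKM in PGE1 libraries, against 1.94, 1.96 and 2.15 FPKM in DMSO libraries (adjusted p = 0.0011), and Bst2 50.8, 69.1 and 49.0 FPKM in PGE1, against 106, 90.5 and 90.8 FPKM in DMSO (adjusted p = 0.0013). Ifi35 had 11.2, 10.6 and 11.5 FPKM in PGE1 libraries, against 22.1, 18.8 and 17.0 FPKM in DMSO libraries (adjusted p = 0.00031). Ddx58 rose by 0.41 on the log2 scale and Ifit2 had a log2 difference of -0.42 (adjusted p = 0.0057 and 0.0095). Samhd1, Adar, Eif2ak2 and Trim30a did not pass, with 95% intervals of -0.07 to 0.18, -0.11 to 0.24, -0.24 to 0.32 and -0.06 to 0.24.

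In the ISG15 pathway Trim25 and Herc6 rose while Isg15 and Usp18 were called lower. Trim25 had 41.1, 38.6 and 40.1 FPKM in PGE1 libraries, against 25.8, 28.7 and 28.9 FPKM in DMSO libraries (log2 difference 0.51; adjusted p = 0.00028), and Herc6 averaged 4.64 ± 0.305 FPKM in PGE1 and 3.20 ± 0.137 FPKM in DMSO (adjusted p = 0.0024). Isg15 had 18.8, 24.0 and 17.4 FPKM in PGE1 libraries, against 26.7, 24.0 and 25.5 FPKM in DMSO libraries (log2 difference -0.34; adjusted p = 0.037), and its highest PGE1 library met its lowest DMSO library at the printed digits. Within antigen presentation, Psmb8 had 90.6, 97.3 and 77.0 FPKM in PGE1 libraries, against 161, 129 and 127 FPKM in DMSO libraries (log2 difference -0.65 ± 0.114; adjusted p = 0.0017). Tap1 averaged 54.6 ± 2.24 FPKM in PGE1 and 42.4 ± 1.44 FPKM in DMSO (adjusted p = 0.001), and Psmb9 64.5 ± 5.41 FPKM in PGE1 and 58.5 ± 8.04 FPKM in DMSO (adjusted p = 0.27). So Psmb8 fell, Tap1 rose and Psmb9 passed in neither direction. Of the 4 PARP-group genes 0 passed limma's test, and 1, Parp9, was higher at an unadjusted p below 0.05. Below the minimum level, Ifi44 had 0.281, 0.352 and 0.262 FPKM in PGE1 libraries, against 1.18, 1.62 and 1.27 FPKM in DMSO libraries, without overlap, while Ifit3 had 0.341, 0.718 and 0.262 FPKM in PGE1, against 1.25, 0.353 and 0.865 FPKM in DMSO. With a matched promoter, 4 of 8 genes that fell and 3 of 8 that rose held an ISRE core, as did 4 of 12 that did not pass.

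PGE2, at the same dose and time, gave calls in 1 direction. Against the same 3 DMSO libraries that PGE1 was compared with, 7 of 36 genes fell, 0 rose and 29 did not pass, beside 4.57% of all genes that fell and 0.996% that rose. At an unadjusted p below 0.05, 23 of the 36 were lower and 0 higher. The median log2 difference was -0.30, against 0.00 for all genes. For 29 of the 36, both PGE2 libraries lay below all 3 DMSO libraries, which was so for 24.1% of all genes. Isg15 had 9.84 and 11.5 FPKM in PGE2 libraries, against 26.7, 24.0 and 25.5 FPKM in DMSO libraries, a 2.38-fold lower mean (log2 difference -1.18 ± 0.129; adjusted p = 0.0013). It was the one member call of 7 kept in all 8 fits that left out a library. The count of genes lower was 15 without PGE1 replicate 2, 2 without DMSO replicate 2, and 1 each without DMSO replicate 3, PGE2 replicate 1 or PGE2 replicate 2. Fitted on the PGE2 and DMSO libraries alone, an alternative chosen after seeing the data, it was 18.

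The other 6 calls had adjusted p-values between 0.014 and 0.046. Oas3 had 4.81 and 4.78 FPKM in PGE2 libraries, against 7.64, 7.45 and 7.34 FPKM in DMSO libraries (log2 difference -0.55; adjusted p = 0.018), and Oas1a 5.26 and 4.98 FPKM in PGE2, against 8.30, 7.18 and 8.27 FPKM in DMSO (log2 difference -0.54; adjusted p = 0.024). Xaf1 had 1.24 and 1.03 FPKM in PGE2 libraries, against 2.11, 2.51 and 2.21 FPKM in DMSO libraries (log2 difference -0.62; adjusted p = 0.022), and Parp12 5.36 and 5.48 FPKM in PGE2, against 7.83, 8.33 and 8.94 FPKM in DMSO (log2 difference -0.54; adjusted p = 0.014). Stat2 had 7.68 and 7.76 FPKM in PGE2 libraries, against 9.97, 10.5 and 10.3 FPKM in DMSO libraries, and Trim25 23 and 21.5 FPKM in PGE2, against 25.8, 28.7 and 28.9 FPKM in DMSO (adjusted p = 0.035 and 0.046). For all 6 the PGE2 libraries were the lower ones without overlap. Irf7 averaged 9.89 ± 0.601 FPKM in PGE2 and 12.9 ± 1.39 FPKM in DMSO (adjusted p = 0.093), Rsad2 5.45 ± 0.767 and 8.85 ± 1.14 FPKM (adjusted p = 0.058), and Oasl1 3.43 ± 0.1 and 5.57 ± 0.621 FPKM (adjusted p = 0.056), and none of these passed. Zbp1 and Psmb8 overlapped between PGE2 and DMSO, with 95% intervals of -0.57 to 0.39 and -0.15 to 0.43.

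**Figure D4:**
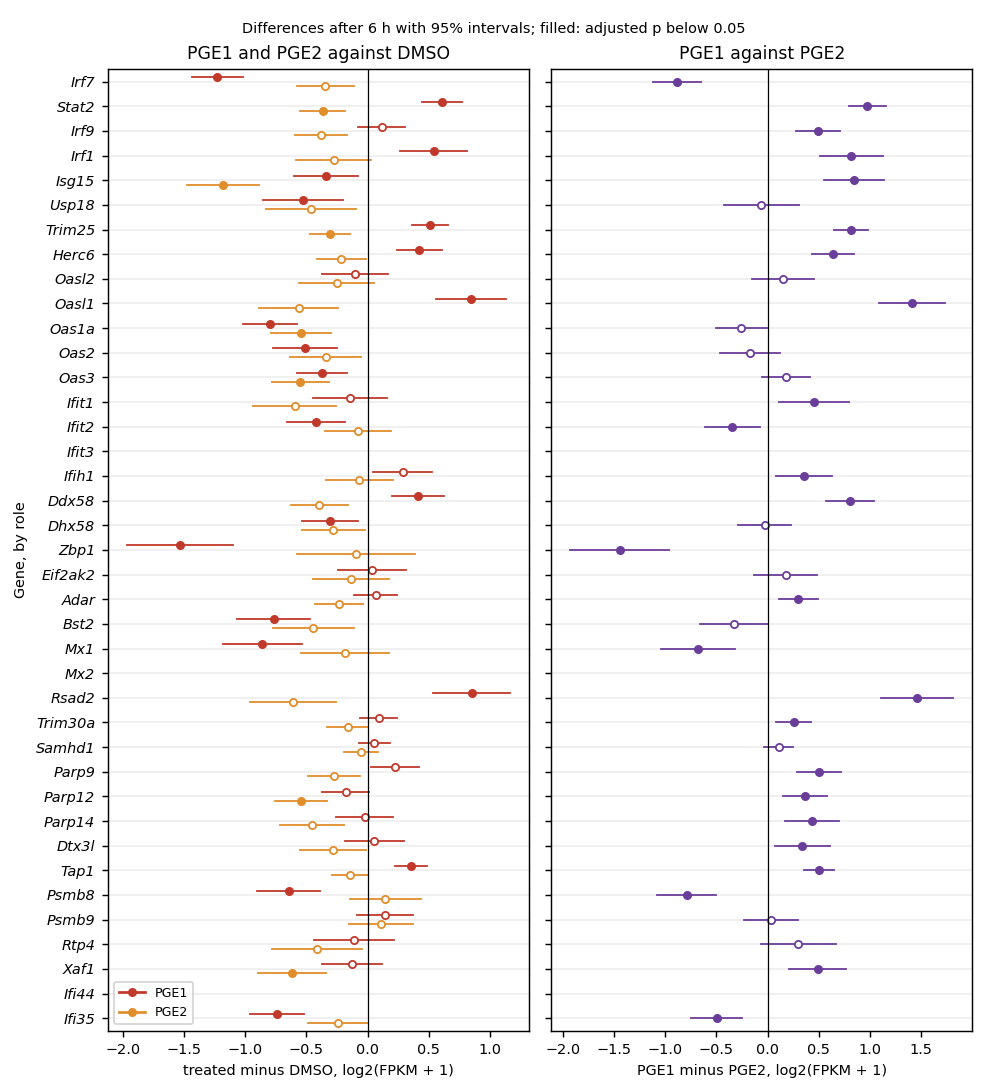
The left panel gives log2(FPKM + 1) differences of PGE1 and of PGE2 libraries from the same 3 DMSO libraries, the right panel the difference between PGE1 and PGE2; bars are 95% intervals and filled points passed the threshold. PGE1 points lie on both sides of 0, from Zbp1 at -1.54 to Rsad2 at 0.85, while the 7 filled PGE2 points lie below 0, with Isg15 at -1.18.

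PGE1 and PGE2, which differ by an additional double bond in a side chain of PGE2, were compared directly, as the 1 pair of compounds, at 20 µM and 6 h. Of 36 genes, 19 were higher and 6 lower in PGE1 than in PGE2, beside 27.2% of all genes that were higher and 26.7% that were lower, and 11 did not pass. The median log2 difference was 0.30, against 0.02 for all genes. Without PGE2 replicate 2 the number higher was 11, and without PGE2 replicate 1 it was 14. Of the 25 calls, 15 were kept without each library in turn; Xaf1, Ifit1, Ifih1, Parp12, Parp14, Dtx3l, Trim30a, Adar, Mx1 and Ifit2 each lost theirs at least once. Rsad2 had 16.5, 20.1 and 14.1 FPKM in PGE1 libraries, against 6.00 and 4.91 FPKM in PGE2 libraries (log2 difference 1.46 ± 0.154; adjusted p = 9.5e-05), and Oasl1 9.99, 13.3 and 9.39 FPKM in PGE1, against 3.50 and 3.36 FPKM in PGE2 (log2 difference 1.41 ± 0.141; adjusted p = 7.4e-05). Their means were 3.09-fold and 3.17-fold those of PGE2, without overlap. Stat2 averaged 16.2 ± 1.34 FPKM in PGE1 and 7.72 ± 0.0507 FPKM in PGE2, Isg15 20.1 ± 3.48 FPKM in PGE1 and 10.7 ± 1.19 FPKM in PGE2, and Trim25 39.9 ± 1.25 FPKM in PGE1 and 22.3 ± 1.10 FPKM in PGE2 (SD, n = 3 and 2; limma adjusted p = 3.1e-05, 0.00069 and 4.3e-05). Irf1 and Ddx58 were higher by 0.82 and 0.81 on the log2 scale (adjusted p = 0.001 and 0.00025).

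In the other direction, Zbp1 had 1.8, 2.36 and 0.975 FPKM in PGE1 libraries, against 7.24 and 5.31 FPKM in PGE2 libraries (log2 difference -1.44 ± 0.212; adjusted p = 0.00054). Irf7 had 5.33, 4.85 and 4.55 FPKM in PGE1 libraries, against 9.47 and 10.3 FPKM in PGE2 libraries (log2 difference -0.88 ± 0.102; adjusted p = 0.00015), and Psmb8 90.6, 97.3 and 77.0 FPKM in PGE1, against 153 and 153 FPKM in PGE2 (log2 difference -0.79 ± 0.128; adjusted p = 0.00092). In these 3 genes no PGE1 library reached a PGE2 library, and the share of all genes without overlap was not computed here. Mx1, Ifi35 and Ifit2 were called lower, with log2 differences of -0.68, -0.50 and -0.34; the call of Mx1 was lost without PGE2 replicate 2 and that of Ifit2 in 4 of the 8 fits that left out a library. The OAS enzyme genes did not differ past the threshold, with 95% intervals of -0.50 to -0.01 for Oas1a, -0.46 to 0.12 for Oas2 and -0.06 to 0.41 for Oas3, and neither did Usp18 (-0.43 to 0.31), Dhx58 (-0.29 to 0.23) or Samhd1 (-0.04 to 0.25).

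Receptors and kinases of the pathway were mostly higher after PGE1. Of 8 tested, 6 rose and 0 fell against DMSO (0 were lower at an unadjusted p below 0.05), and 7 were higher and 0 lower in PGE1 than in PGE2 (0 lower unadjusted). Over all genes, 23.6% rose and 25.5% fell against DMSO, and 27.2% were higher and 26.7% lower in PGE1 than in PGE2. Ifngr1 had 108, 121 and 109.5 FPKM in PGE1 libraries and 69.9 and 69.1 FPKM in PGE2 libraries, against 52.3, 49.1 and 46.3 FPKM in DMSO libraries, and was called higher for PGE1 (log2 difference 1.18; adjusted p = 5.8e-06) and for PGE2 (0.49; 0.0091, lost without DMSO replicate 3 or either PGE2 replicate). Ifnar1 and Ifnar2 averaged 16.2 ± 0.278 and 63.4 ± 5.49 FPKM in PGE1, 10.2 ± 0.308 and 35.9 ± 0.811 FPKM in PGE2, and 11.3 ± 0.621 and 42.5 ± 1.21 FPKM in DMSO, and both were called higher in PGE1 than in DMSO. Irf8 had 9.22, 10.2 and 9.23 FPKM in PGE1 libraries and 29.5 and 32.2 FPKM in PGE2 libraries, against 26.7, 23.5 and 23.5 FPKM in DMSO libraries, and fell with PGE1 (adjusted p = 5.3e-06). Socs1 averaged 3.63 ± 0.841 FPKM in PGE1 and 19.4 ± 0.968 FPKM in PGE2, against 33.2 ± 2.51 FPKM in DMSO (adjusted p = 1e-06 and 0.018, the PGE2 call lost without DMSO replicate 2 or 3 or either PGE2 replicate), and Socs3 6.13 ± 0.595 FPKM in PGE1 and 20.3 ± 0.221 FPKM in PGE2, against 36.6 ± 0.839 FPKM in DMSO (adjusted p = 1.6e-07 and 0.00068). Of 21 genes that restrain the pathway, Socs1 and Socs3 among them, 6 rose and 7 fell with PGE1, and 0 rose and 3 fell with PGE2. Of 20 sensors, adaptors and interferon regulatory factors, Irf8 among them, 3 rose and 6 fell with PGE1, and 0 passed with PGE2. Of 78 further interferon-stimulated genes, 13 rose and 28 fell with PGE1, beside 23.6% of all genes that rose and 25.5% that fell. With PGE2, 2 rose and 19 fell, beside 0.996% of all genes that rose and 4.57% that fell.

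No interferon gene reached the minimum level in any fit. Of 21 interferon ligand genes in the tables, Ifnb1, which encodes interferon beta, had 1 read in all, in DMSO replicate 2, and was at 0 elsewhere; 3 reads would be 0.187 FPKM in an average PGE1 library and 0.12 FPKM in an average WT library. Ifng, which encodes interferon gamma, had 0.188, 1.61 and 0.236 FPKM in PGE1 libraries (5, 38 and 6 reads) and 0.152 and 0.0434 FPKM in PGE2 libraries (4 and 1 reads), against 0.192, 0.0364 and 0.116 FPKM in DMSO libraries (5, 1 and 3 reads). PGE1 replicate 2 held most of the Ifng reads. In untreated cells Ifng had 0 reads in dKO and 1 in WT. Gzma, a granule protease of T and NK cells, had 3.11, 3.56 and 4.28 FPKM in PGE1 libraries, against 0.423, 0.301 and 0.426 FPKM in DMSO libraries, and the summed level of 11 T and NK cell markers was 17.8 to 26.0 FPKM in PGE1 libraries and 61.4 FPKM in both PGE2 libraries, against 44.8 to 53.3 FPKM in DMSO libraries.

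Marker levels beside the prostaglandin results were as follows. Over all genes, 25.5% fell and 23.6% rose with PGE1, and 4.57% fell and 0.996% rose with PGE2. With PGE1, 11 of the 17 markers of monocytes and macrophages fell and 2 rose, with summed levels of 871 to 1120 FPKM in PGE1 libraries, against 901 to 1059 FPKM in DMSO libraries. With PGE2, 1 fell and 3 rose, with sums of 1179 to 1191 FPKM in PGE2 libraries. Plasmacytoid dendritic cell markers, of cells that are known as strong interferon producers, summed to 36.2 to 38.7 FPKM in PGE1 libraries and 54.3 to 56.2 FPKM in PGE2 libraries, against 43.4 to 47.0 FPKM in DMSO libraries, and of the 5 tested 1 rose, 1 fell and 3 did not pass with PGE1. Their defining marker Siglech had 0.0373, 0 and 0 FPKM in PGE1 libraries and 1.32 and 1.16 FPKM in PGE2 libraries, against 0.743, 0.832 and 0.768 FPKM in DMSO libraries. Late neutrophil markers summed to 1037 to 1603 FPKM in PGE1 libraries and 2122 to 2138 FPKM in PGE2 libraries, against 1568 to 1855 FPKM in DMSO libraries. Megakaryocyte markers summed to 425 to 565 FPKM in PGE1 libraries and 413 to 426 FPKM in PGE2 libraries, against 361 to 419.7 FPKM in DMSO libraries, and with PGE1 4 of 11 tested rose and 2 fell. Of 5 sex-linked genes, 4 rose and 1 fell with PGE1, and 0 passed with PGE2. In PGE1 against PGE2, 3 were higher and 1 lower, beside 27.2% and 26.7% of all genes. The donors of the treated groups are not given, so a difference in donors cannot be told apart from the treatment. The part of these marker differences in the changes of the interferon-stimulated genes was not tested.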

How the data were processed

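RNA-seq levels of 14 mouse libraries were used as FPKM values per gene, which the authors deposited for each library; per the submitters' processing notes the tools were CASAVA 1.8, TopHat and Cufflinks and the build was mm9. The sources used here do not give counting options or strand handling. Read numbers were recovered from the FPKM steps, which came out whole within 0.00109 reads for all 19057 genes with reads, and served only for depth and floors. Floors of 3 reads cover counting error only, and the 95% intervals are limma's, from the spread between libraries.

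Groups follow the sample titles. limma 3.58.1 (R 4.3.3, trend) was run on log2(FPKM + 1) for genes whose mean over a fit's libraries reached 1 FPKM; p-values were Benjamini-Hochberg adjusted over all genes tested, at a threshold of 0.05, in 3 fits: dKO with WT, PGE1 with PGE2 and DMSO, and DMSO with WT. Fold changes on this scale understate the change of low genes. The share of all genes whose libraries did not overlap was computed for PGE2 against DMSO only. Tcf7 and Lef1 were compared by an exact permutation test. The procedure was tested on simulated data. Values of every library are given for up to 10 members per comparison with the largest log2 difference among called members whose groups did not overlap, and for others where a role needed 1; of each other pathway list, up to 4 genes with the smallest p were named. Ifitm1 in dKO, Irf8, Tlr7, Siglech, Gzma and the members below the minimum were chosen after their values were seen. The members and lists were chosen with earlier results of these data known. Alternatives were a pseudocount of 0.1, no minimum, a minimum of 5 FPKM, median-of-ratios scaling, quantile normalization, a replicate block and leaving out each library. Promoters were read from RefSeq windows (GRCm38.p6), a build other than that of the files, so no file coordinate was used with them.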

Additional observations from a re-analysis of the deposited data

How the results depend on the processing

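No call of an interferon-stimulated gene changed sign under any alternative run. With a minimum of 5 FPKM, which left fewer genes to test, 9 interferon-stimulated genes were lower in dKO than in WT, 8 lower in PGE1 than in DMSO and 3 lower in PGE1 than in PGE2. Leaving out each library in turn gave 19 to 24 genes lower in dKO than in WT, 8 to 10 higher and 11 to 13 lower in PGE1 than in DMSO, 1 to 15 lower in PGE2 than in DMSO, 11 to 19 higher and 5 to 7 lower in PGE1 than in PGE2, and 31 to 33 higher and 2 lower in DMSO than in WT. With 1 PGE2 library left, that library is assumed to vary like the other groups. With the PGE2 and DMSO libraries alone, a setting that was chosen after seeing the data, the number lower in PGE2 was 18. Same-numbered libraries did not deviate together in every pair (correlations -0.24 to 0.25), so the numbers were not taken to pair the samples; with the replicate block, 24 genes were lower in dKO, 8 higher and 12 lower in PGE1 than in DMSO, 2 lower in PGE2 than in DMSO, 16 higher and 5 lower in PGE1 than in PGE2, and 32 higher and 2 lower in DMSO than in WT. The cause of these shifts was not tested. Mx2, Ifit3 and Ifi44 lay under the minimum mean of 1 FPKM in the fits of the report.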
